A study of Homo sapiens with 20 samples.

Results

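IGF2BP3 PAR-CLIP libraries of the human colorectal carcinoma line HCT116 are described here: 3 from cells given tunicamycin for 4 h and 3 from cells given the solvent DMSO, 6 of the 20 libraries in the series. They were chosen by their labels alone. All cells carried the Tet-OsTIR1-PURO genotype, a tetracycline-driven plant ubiquitin ligase component, and this modification was shared by both groups. Every culture received 100 µM 4-thiouridine for 15 h, and protein was crosslinked to RNA with 365 nm light at 0.15 J/cm2 on 5 dishes of 15 cm per condition. The treated group received tunicamycin at 5 µg/mL for 4 h, and the control group received DMSO over the same 4 h. A single cell line and a single antibody against IGF2BP3 were used, and the labels do not say that replicates came from separate cultures, so p-values measure only the spread between these samples. The libraries fall into 2 sets by their names: replicates 1 and 2 of each group share one, and replicate 3 of each group belongs to the other.

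IGF2BP3 is an RNA-binding protein of the insulin-like growth factor 2 mRNA-binding family, made mainly in embryonic tissue and tumours, where it affects the stability and translation of its target mRNAs. In PAR-CLIP, 4-thiouridine in the RNA crosslinks to the bound protein and is read as cytosine after reverse transcription, so T-to-C conversions mark the contact. Tunicamycin blocks N-linked glycosylation in the endoplasmic reticulum (ER); unfolded proteins accumulate there, and the sensors IRE1, PERK and ATF6 start the unfolded protein response. IRE1 splices XBP1 mRNA, ATF6 raises chaperone genes, and PERK phosphorylates eIF2-alpha, which favours translation of ATF4 and the expression of its target genes.

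The windows below are the stretches of 30 bases around the crosslink mode of the most-read cluster in some of the genes whose reads changed most, shown because they carry the changes described further on. A cluster is a stretch of overlapping reads with conversions, as called by the authors. The windows of HSP90B1, HERPUD1, DDIT3 and HMGA2 lie at an edge of their cluster, so the mode need not be at their centre. The first 5 come from the third TM 4 h sample and the last 3 from the third DMSO sample, the most deeply read sample of each group. Each is written 5′ to 3′ on the RNA strand, with T for U, and positions are on hg38. Capitals mark CATA, CATC or CATT, letters reported as an IGF2BP-preferred motif, and TGGAC, letters reported as a context of N6-methyladenosine that these proteins favour. The search covered the RNA strand only, and the motifs can overlap by 1 base.
HSPA5 (chr9:125236545-125236574, minus strand): ctgtaatattgtaaatacTGGACtcaggaa
HSP90B1 (chr12:103934238-103934267, plus strand): gtaattgctgacccaagaggaaacactcta
HERPUD1 (chr16:56940123-56940152, plus strand): tcgagattggttggatTGGACctattcagc
DDIT3 (chr12:57516674-57516703, minus strand): aCATAcgcagggggaaggcttggagtagac
TRIB3 (chr20:396788-396817, plus strand): cttccagaagggagaaaggcagaagcctgt
HMGA2 (chr12:65964298-65964327, plus strand): aaaggggggggcaatctctctctgtgtctt
DUSP5 (chr10:110511238-110511267, plus strand): tgggtcagtggcggtgcaaactggtttcct
FOSL1 (chr11:65893023-65893052, minus strand): cccccacactcatgaccacaccctccctaa
TGGAC was found in 2 and CATA in 1 of 11 windows read in this way; those of STC2, SESN2 and XBP1, not shown, held neither. Among the 6275 regions listed in all 6 samples that gave a window of this length, 2.71% held TGGAC, 34.3% held CATA, CATC or CATT, and 16.5% held TTTT. The gene annotation used gives gene spans without exons, so a region is placed by its distance from the 3′ end of its gene.

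Counted reads per sample summed to 374238, 960565 and 1287291 in DMSO and to 457179, 765710 and 1568406 after TM 4 h. The lists held 14399 to 51825 clusters in DMSO and 18412 to 63287 after TM 4 h. The matched control IgG libraries gave 7864 and 11542 counted reads and 43 and 91 clusters. Of 10 epithelial and colorectal marker genes, 6 had a cluster in these samples, EPCAM and KRT8 among them, and VIL1, CDH17, CDX1 and LGR5 had none. None of 14 markers of fibroblasts, blood, endothelium and other cell types had a cluster.

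Across the deposited gene counts, 426 of 8343 genes tested, or 5.11%, differed between TM 4 h and DMSO at an adjusted p under 0.05 (edgeR quasi-likelihood test, Benjamini-Hochberg adjustment). Of these, 233 were higher and 193 lower after TM 4 h, and 49 and 18 of them by at least 2-fold. Leaving out DMSO replicate 3 gave 178 calls, leaving out TM 4 h replicate 3 gave 247, and DESeq2 called 152. The identifiers of that table are not paired with symbols in the sources used here. Genes are therefore named through the clusters: the reads of regions listed in all 6 samples were summed over each RefSeq gene, which gave 2989 genes with a symbol. Values below are CPM (counts scaled to library size) on that table, and they scale with both the amount of an RNA and its binding per molecule, which cannot be told apart here; nor can fewer cells and less RNA per cell.

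Among these genes 36 rose, 1.2% of those tested, and 11 fell, 0.368%, of which 10 and 3 changed by at least 2-fold. The genes that rose most encode ER chaperones (HSP90B1, HSPA5) and proteins of the PERK and IRE1 branches (TRIB3, STC2, XBP1, SESN2), and those that fell most are TRIB1, DUSP5 and KLF6. The groups did not overlap for any of the 47 genes, nor for 518 of all 2989 genes (17.3%). With each library left out in turn, 14 of the 47 kept their call in all 6 fits: HSP90B1, HSPA5, HSPA5P1, TRIB3, STC2, XBP1, SESN2, PSAT1, RACK1, RPL10, NACA and HSP90AB1 among those that rose, and TRIB1 and HMGA2 among those that fell. The number called was 86, 20 and 18 when DMSO replicate 1, 2 or 3 was left out, 16 and 30 when replicate 2 or 3 of TM 4 h was left out, and 12 with the TM 1 h samples also in the fit. In that last fit a region not listed in a TM 1 h sample counted as 0, which can widen the spread. Of the 47 genes, 25 had most of their reads in clusters that share a stretch of 25 bases with clusters at another gene, 8 were pseudogenes and 1 was a long non-coding RNA. The reads of such copies could have been placed at either, and their values are uncertain. None of the 47 had a read in the control IgG lists within these regions. Those lists held 43 and 91 clusters, so few of all genes tested could have had one.

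**Figure D1:**
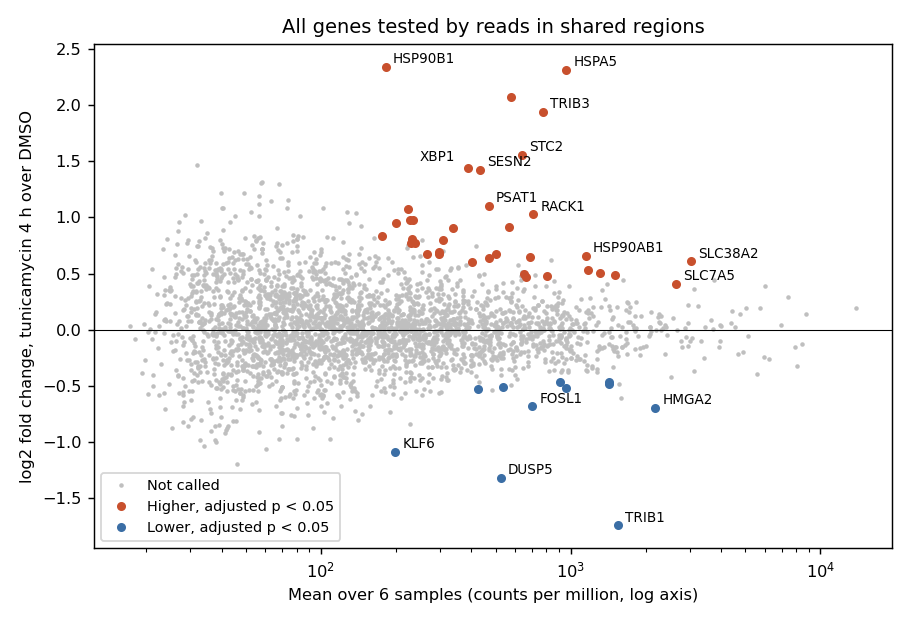
Each point is 1 of 2989 genes, placed by its mean over the 6 samples (CPM, log axis) and its log2 fold change after TM 4 h over DMSO; coloured points passed the edgeR test, 36 higher and 11 lower. HSPA5 and HSP90B1 lie highest and TRIB1 lowest.

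HSPA5, the ER chaperone BiP that holds the stress sensors inactive, gave 335, 280.1 and 349 CPM in DMSO and 1499.8, 2121 and 1187 CPM after TM 4 h. The lowest treated sample lay above the highest control by more than the spread of the controls. The rise was 4.97-fold (log2 2.31 ± 0.18 SE, edgeR adjusted p = 1.97e-06). The gene spans chr9:125234853-125241343 on hg38, and its counted region, printed above in part, lies 1643 bases before its 3′ end. The pseudogene HSPA5P1 rose by 2.07 on the log2 scale, and 99.4% of its reads lay in clusters that share sequence with another gene, as did 89.7% of those of HSPA5. HSP90B1, the ER chaperone GRP94, gave 69.2, 57.2 and 57.7 CPM in DMSO against 273, 368 and 267 CPM. This was a 5.06-fold rise (log2 2.34 ± 0.22 SE, edgeR adjusted p = 1.22e-05), and 74.2% of its reads lay in clusters that share sequence with another gene. With the TM 1 h samples also in the fit, where their unlisted regions counted as 0, the adjusted p for HSP90B1 was 0.138.

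The ER chaperone list, 21 genes, had 18 with a cluster and 10 tested, of which 3 rose and none fell, with a median log2 fold change of 0.57 against 0.01 over all genes tested. The third was CALR, a lectin chaperone of the ER lumen, at 525, 539 and 529 CPM in DMSO and 752, 1083 and 680.3 CPM after TM 4 h (log2 0.65 ± 0.15 SE, edgeR adjusted p = 0.0391). The highest treated CALR value was that of replicate 2, and its call was lost without DMSO replicate 2 or 3 or TM 4 h replicate 1 or 2, where the adjusted p ranged from 0.0597 to 0.228. HYOU1, a nucleotide exchange factor for BiP, had a log2 difference of 1.02 ± 0.37 SE (adjusted p = 0.235). PDIA6, a disulfide isomerase, had 0.66 ± 0.19 SE (adjusted p = 0.0890), and CANX and P4HB had 0.21 and 0.10. All 10 members had a log2 value above 0. Without TM 4 h replicate 2, 8 did and the median was 0.37, and without DMSO replicate 2, 9 did.

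Genes of ER-associated degradation and the XBP1 branch were less even. Of 28, 25 had a cluster and 11 were tested; XBP1 rose, none fell, and the median was 0.20. XBP1, the transcription factor whose mRNA IRE1 splices, gave 138, 211 and 248 CPM in DMSO and 575, 648 and 508 CPM after TM 4 h. Every treated sample was above the highest control (log2 1.44 ± 0.17 SE, edgeR adjusted p = 9.13e-05). Both of its regions were called, at 1.57 and 1.35.

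Several genes of the response had too few clusters in DMSO to enter that table. HERPUD1, an ER membrane protein of the degradation machinery, had 0, 12 and 7 cluster reads in DMSO and 110, 401 and 497 after TM 4 h. DDIT3, which encodes the transcription factor CHOP, was not listed in any DMSO sample and had 37, 112 and 177 reads after TM 4 h, in 2, 5 and 6 clusters. Neither gene had a cluster in any of the 3 TM 1 h samples. DDIT4, an inhibitor of mTORC1, had 0, 29 and 13 reads against 83, 201 and 434. DNAJB9, an ER co-chaperone, had 0, 34 and 31 against 52, 157 and 254. In CHAC1, a glutathione-degrading enzyme downstream of ATF4, 8 reads were listed in 1 DMSO sample, and 10, 93 and 164 after TM 4 h. For all 5 genes every treated sample was above every control, also after scaling to the cluster reads of the sample. No share over all genes is given for such a separation on these reads, so it is a description.

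Because clusters below the authors' calling limits are not listed, these reads give no fold change. In a fit to all clusters of a gene, added after the data were seen, 10 of 5484 genes, 0.182%, were called: HSPA5, HSP90B1, HERPUD1, DDIT3, DDIT4, XBP1, SESN2, STC2, HSPA5P1 and LOC100288073. In a fit to regions listed in at least 5 of the 6 samples, which called 23 of 4249 genes (0.541%), HERPUD1 (adjusted p = 0.00138), DDIT4 (adjusted p = 0.00138) and DNAJB9 (adjusted p = 0.0379) were among the genes called. A gene that entered such a table through its treated samples alone had to differ, so these calls are given as a description. Listed in all TM 4 h samples and no DMSO sample were 13 genes, DDIT3 with the most reads. The reverse held for 3, RHOU, NFIB and MIR568, with 50, 35 and 37 reads in DMSO in all. Both counts depend on depth, which was lowest in DMSO replicate 1. BMP4, a secreted growth factor, had 0, 47 and 101 reads in DMSO and 4, 0 and 35 after TM 4 h, with overlapping groups.

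**Figure D2:**
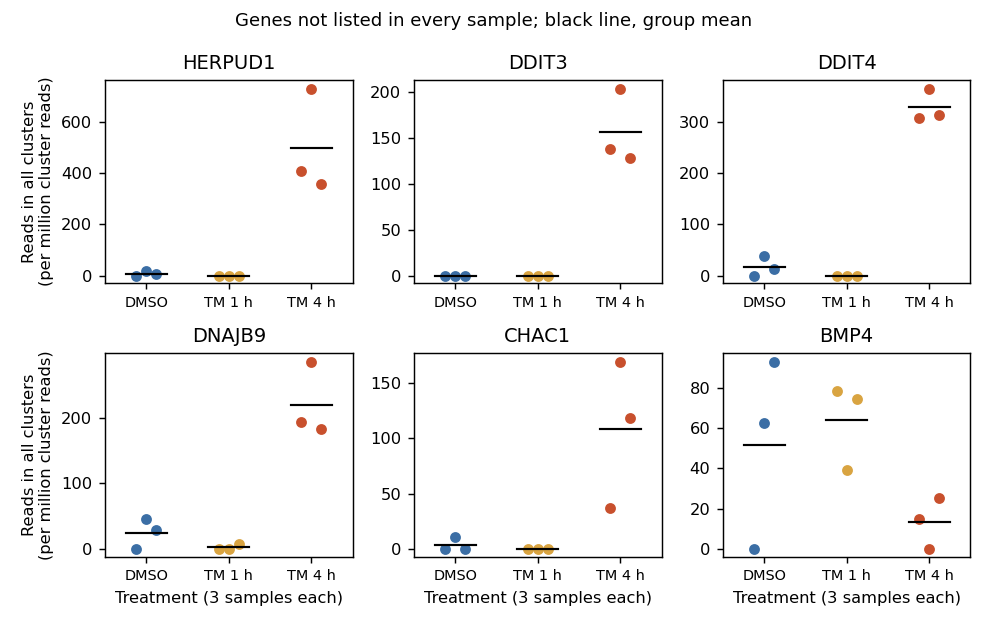
Reads in all clusters of 6 genes, scaled to the cluster reads of each sample (RPM), for 3 samples each of DMSO, TM 1 h and TM 4 h; points are samples and black lines group means. HERPUD1, DDIT3, DDIT4, DNAJB9 and CHAC1 are at or near 0 in DMSO and TM 1 h and higher in every TM 4 h sample, while BMP4 overlaps between DMSO and TM 4 h.

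Regulators of the integrated stress response, the pathway that PERK shares with other eIF2-alpha kinases, held 29 genes, of which 23 had a cluster and 12 were tested; 4 rose and 1 fell, and the median was 0.45. TRIB3, a pseudokinase that binds AKT and ATF4, gave 335, 353 and 284 CPM in DMSO and 920.0, 1787 and 968 CPM after TM 4 h, a 3.83-fold rise (log2 1.94 ± 0.21 SE, edgeR adjusted p = 3.55e-05). Replicate 2 was the highest treated sample for TRIB3, as it was for HSPA5 and STC2. STC2, a secreted glycoprotein induced by PERK signalling, gave 231, 371 and 346 CPM against 704, 1294 and 893 CPM (log2 1.56 ± 0.19 SE, edgeR adjusted p = 1.14e-04). SESN2, a leucine sensor that restrains mTORC1, gave 190.4, 262 and 241 CPM against 532, 774 and 603 CPM (log2 1.43 ± 0.16 SE, edgeR adjusted p = 4.64e-05). No treated sample of these 3 genes overlapped a control, and none of their reads lay in clusters that share sequence with another gene.

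The remaining member that rose, NFE2L2, the master regulator of antioxidant genes, changed by 0.68 ± 0.15 (SE) on the log2 scale (edgeR adjusted p = 0.0271), and lost its call without DMSO replicate 2 or 3 or TM 4 h replicate 2. ATF4, the transcription factor at the centre of the pathway, gave 796, 635 and 529 CPM in DMSO and 829, 742 and 765 CPM after TM 4 h. The groups overlapped (log2 0.29 ± 0.13 SE, edgeR adjusted p = 0.378). ATF3, a repressor induced by ATF4, had a log2 difference of 0.05 ± 0.20 (SE) and overlapping groups as well. TRIB1, a pseudokinase that directs the COP1 ubiquitin ligase, was in the same list and fell, as described below.

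Amino acid synthesis and transport, the main output of ATF4, had 21 genes on its list, 16 with a cluster and 9 tested; 5 rose, none fell, and the median was 0.41. PSAT1, an enzyme of serine synthesis, gave 202, 341 and 325 CPM in DMSO and 551, 784 and 613 CPM after TM 4 h, a 2.15-fold rise (edgeR adjusted p = 0.00145). With the TM 1 h samples also in the fit, where their unlisted regions counted as 0, the adjusted p for PSAT1 was 0.489. SLC38A2, a neutral amino acid transporter, gave 2382, 2239 and 2556 CPM against 3479, 4391 and 3092 CPM (log2 0.61 ± 0.13 SE, edgeR adjusted p = 0.0200). All 12 regions of SLC38A2 had a log2 value above 0, from 0.38 to 0.80. The cationic transporter SLC7A1 rose by 0.51, the mitochondrial folate enzyme MTHFD2 by 0.49 and the large neutral transporter SLC7A5 by 0.41, with adjusted p values of 0.0318, 0.0182 and 0.0478. Leaving out DMSO replicate 2 or 3 or TM 4 h replicate 2 ended the calls of SLC38A2, SLC7A1, MTHFD2 and SLC7A5 and left PSAT1 as the 1 member called. SLC7A5 lost its call in all 6 such fits. The cytosolic aminoacyl-tRNA synthetases, which charge tRNAs with amino acids, had 7 of 20 tested and none called, with a median of 0.29.

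**Figure D3:**
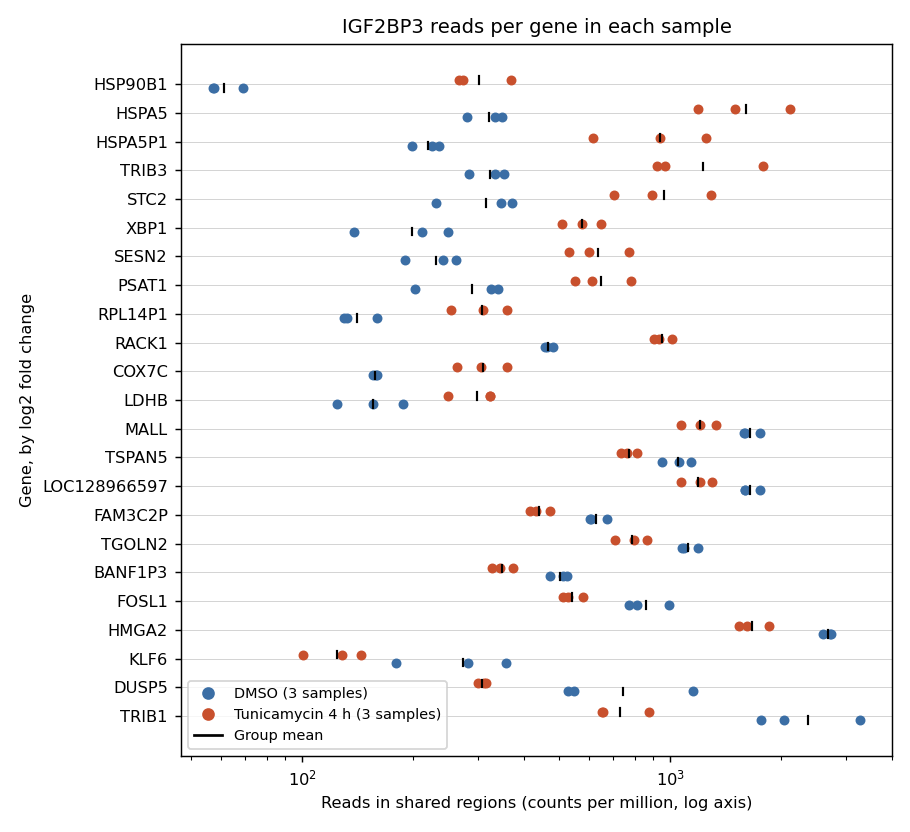
Reads in shared regions (CPM, log axis) in each of 3 DMSO and 3 TM 4 h samples for the 12 genes that rose most and the 11 that fell; points are samples and black ticks group means. No overlap between the groups was a condition for choosing the 23. Among the DUSP5 controls the values run from 527 to 1151 CPM.

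Ribosomal protein mRNAs had few calls and mostly positive values. Of 46 large-subunit genes, 29 were tested and 28 had a log2 value above 0, with a median of 0.42; RPL10 and RPL37A were called. Of 32 small-subunit genes, 18 were tested and 17 were above 0, with a median of 0.57; 3 were called, RPS16 among them. Without DMSO replicate 2 or 3 or TM 4 h replicate 2 or 3 no small-subunit gene was called (edgeR). Over all genes tested, 1554 of 2989 were above 0. RPL10, which sits near the peptidyl transferase centre, gave 369, 444 and 355 CPM in DMSO and 728, 787 and 706 CPM after TM 4 h (log2 0.92 ± 0.13 SE, edgeR adjusted p = 4.70e-04). Its call held without any single library, but 97.7% of its reads lay in clusters shared with other loci, and RPL10P16 on chromosome 19 rose by 0.80. RPL37A and RPS16 had 74.9% and 86.1% of their reads in such clusters. Each kept its call in 1 of the 6 fits that leave out a library, and RPS16 was not called by DESeq2.

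RACK1, a scaffold protein of the small ribosomal subunit that was on no list, gave 479, 458 and 463 CPM in DMSO and 934, 1008 and 902 CPM after TM 4 h (log2 1.03 ± 0.11 SE, edgeR adjusted p = 3.55e-05). Both groups were tight, and only 6.65% of its reads lay in clusters shared with another locus. NACA, a nascent-chain chaperone at the ribosome exit, rose by 0.91 (adjusted p = 0.00182) and the cytosolic chaperone HSP90AB1 by 0.66 (adjusted p = 0.00102). HSP90AB1 gave 894, 917 and 865 CPM against 1394, 1427 and 1401 CPM. Shared clusters held 86.8% of the NACA reads and 89.0% of the HSP90AB1 reads. COX7C, a subunit of cytochrome c oxidase, LDHB, a lactate dehydrogenase subunit, and the pseudogene RPL14P1 complete the 12 genes that rose most, at 0.98, 0.97 and 1.08 (adjusted p = 0.00470, 0.0147 and 0.00470). COX7C and LDHB lost their calls when TM 4 h replicate 2 was left out, RPL14P1 and LDHB when DMSO replicate 3 was, and LDHB also when TM 4 h replicate 3 was.

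Among the genes that fell, TRIB1 changed most. It gave 2042, 1768 and 3279 CPM in DMSO and 877, 656 and 653 CPM after TM 4 h, a 3.33-fold fall (log2 -1.74 ± 0.19 SE, edgeR adjusted p = 3.55e-05). The third DMSO sample was the highest, and every treated sample was under the lowest control by more than 2-fold. All 3 of its regions were called, at -1.70, -1.93 and -1.62.

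Immediate early genes, whose transcription starts within minutes of growth factor signalling, had 31 members on their list, 27 with a cluster and 13 tested. None rose and 3 fell, all 13 had a log2 value below 0, and the median was -0.36. The third DMSO sample was the highest control for 11 of the 13. Without it 1 member fell, 10 were below 0 and 3 above, and the median was -0.12. Summed over the list's clusters and scaled to the cluster reads of the sample (RPM), the controls were at 7059, 5644 and 9182 and the treated samples at 5808, 5408 and 4135, and the groups overlapped. NR4A1, an orphan nuclear receptor, gave 46.1, 51.3 and 203 CPM in DMSO and 105, 66.7 and 53.8 CPM after TM 4 h, so that every treated sample exceeded the first 2 controls. DUSP5, a nuclear phosphatase of ERK, gave 548, 527 and 1151 CPM in DMSO and 311, 315 and 299.8 CPM after TM 4 h (log2 -1.32 ± 0.23 SE, edgeR adjusted p = 0.00603). The fall rested partly on the third DMSO sample: without it the value was -0.80 (adjusted p = 0.0159), and without TM 4 h replicate 2 the adjusted p was 0.0519. KLF6, a zinc finger transcription factor, gave 283, 179.5 and 358 CPM against 101, 128 and 144 CPM (log2 -1.09 ± 0.24 SE, edgeR adjusted p = 0.0303). The KLF6 call was lost without DMSO replicate 3, where the value was -0.79 (adjusted p = 0.317), and without TM 4 h replicate 1, 2 or 3 (adjusted p = 0.0759, 0.153 and 0.0527). FOSL1, the AP-1 subunit FRA1, gave 813, 771 and 994 CPM against 513, 579 and 529 CPM (log2 -0.68 ± 0.12 SE, edgeR adjusted p = 0.00707; 0.0896 without DMSO replicate 3). Of the FOSL1 reads, 97.8% lay in clusters shared with another locus. EGR1, a zinc finger factor downstream of ERK, had a log2 difference of -0.42 ± 0.19 (SE, adjusted p = 0.375), with overlapping groups.

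HMGA2, an architectural chromatin protein and an mRNA reported to be bound by the IGF2BP family, gave 2596, 2708 and 2740.5 CPM in DMSO and 1849.6, 1537 and 1611 CPM after TM 4 h. The controls were close to each other and all above the treated samples (log2 -0.70 ± 0.10 SE, edgeR adjusted p = 0.00105). It was the one member called among 13 tested of a list of 20 published IGF2BP targets, whose median was -0.11. IGF2BP3's own mRNA gave 28.8, 43.4 and 37.0 CPM in DMSO and 43.1, 26.7 and 22.0 CPM after TM 4 h (log2 -0.46 ± 0.37 SE, adjusted p = 0.662). IGF2BP2 had 0, 65 and 101 cluster reads in DMSO and 6, 32 and 80 after TM 4 h, and IGF2BP1 had none.

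The other genes that fell changed less. TGOLN2, a trans-Golgi membrane protein, fell by 0.52 and the tetraspanin TSPAN5 by 0.46 (adjusted p = 0.0210 and 0.0388). MALL, a lipid raft protein, fell by 0.46, and the locus LOC128966597, to which nearly the same reads were assigned, fell by 0.48 (adjusted p = 0.0388 and 0.0291). The pseudogenes FAM3C2P and BANF1P3 fell by 0.51 and 0.53 (adjusted p = 0.0391 and 0.0498). Leaving out DMSO replicate 2 or 3 or TM 4 h replicate 2 or 3 ended the call of each of these 6.

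A further 4 lists held 1 call in all. Among p53 targets, 14 of 19 were tested, with a median of 0.07, and the cyclin CCNG1 rose (log2 0.48 ± 0.11 SE, adjusted p = 0.0317; lost in 5 of the 6 fits that leave out a library). Cholesterol and fatty acid synthesis had 7 of 25 tested and a median of 0.15, and mitosis and cell cycle genes had 7 of 25 tested and a median of 0.14. BMP, ID and SMAD genes had 5 of 21 tested and a median of -0.07; ID2, an inhibitor of bHLH factors, had the lowest value, at -0.83 ± 0.21 (SE, adjusted p = 0.0613).

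**Figure D4:**
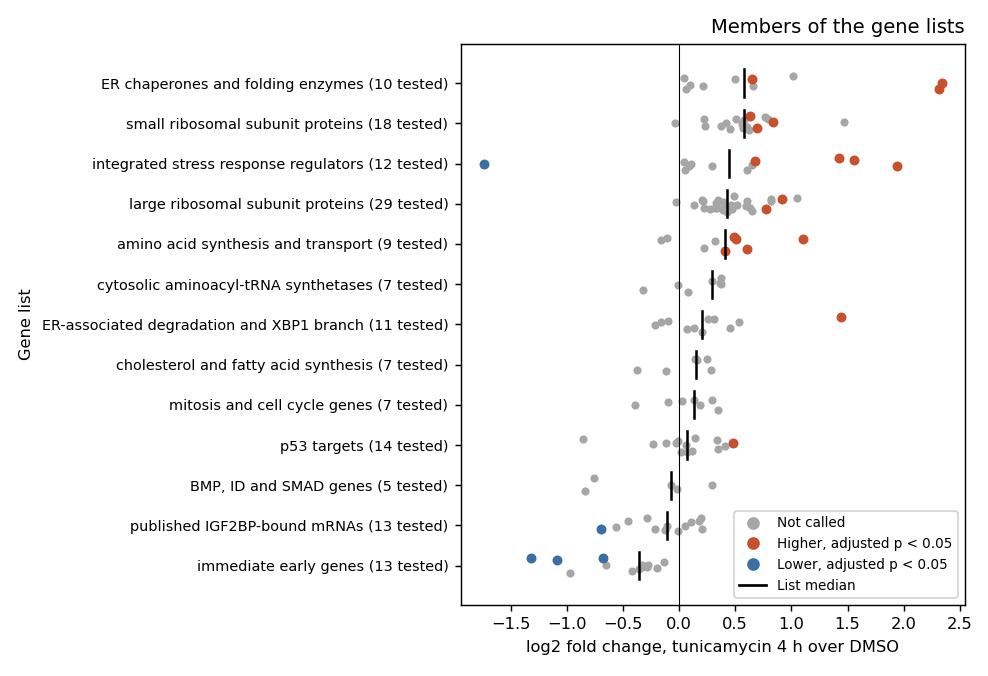
Each point is a tested member of a gene list, placed by its log2 fold change after TM 4 h over DMSO; coloured points passed the edgeR test and black lines are list medians. ER chaperones and small ribosomal subunit proteins have the highest medians, both 0.57, with HSPA5 and HSP90B1 far to the right, and immediate early genes the lowest, -0.36, with all 13 below 0 (10 of 13 below 0, median -0.12, without DMSO replicate 3). The ER chaperone median was 0.37 without TM 4 h replicate 2.

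Single binding regions were tested in the same way. Clusters joined across the 6 samples made 68676 regions, of which 6288 were listed in all 6. Of these, 31 were higher, 0.493%, and 8 were lower, 0.127%, in 22 and 4 genes. Leaving out DMSO replicate 2 gave 21 called regions, DMSO replicate 3 gave 20 and TM 4 h replicate 2 gave 18. The largest rises were the HSP90B1 region at chr12:103941410-103941514 (log2 2.59 ± 0.36 SE, edgeR adjusted p = 6.35e-04), the HSPA5 region at chr9:125236238-125236755 (2.30 ± 0.19, adjusted p = 2.46e-06), an HSPA5P1 region (2.23) and the second HSP90B1 region at chr12:103933960-103934267 (2.19). Of 4 STC2 regions 3 were called, from 1.44 to 1.94, and the fourth, at the 3′ end, had 1.05 ± 0.29 (SE, adjusted p = 0.115). All 8 regions that fell lay in TRIB1, HMGA2, DUSP5 and FOSL1. A further 123 regions were listed in all TM 4 h samples and no DMSO sample, 5 of them in HERPUD1 and 5 in HSPA5, and 27 were the reverse. Such counts depend on depth and on the calling limits. The shallowest sample held 14399 clusters in DMSO and 18412 after TM 4 h, and these counts were not tested.

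HMGA2 had 7 shared regions, all below 0, from -1.14 to -0.45, and 3 were called. The 4 regions nearest the 3′ end lay between -1.14 and -0.97, and the 3 farther upstream between -0.62 and -0.45; no difference between them passed the test described next. RACK1 had 6 regions, all above 0, from 0.80 to 1.19. HSP90AB1 had 9 regions, of which 3 were called higher, at 1.52, 1.35 and 1.36, while the region 200 bases before the 3′ end, at chr6:44253498-44253868, had 0.04 ± 0.13 (SE, adjusted p = 0.957). Whether a region changed more than the rest of its gene was tested with edgeR's diffSpliceDGE. None of 4199 regions in 1304 genes was called, 0.0%, against 116 at an unadjusted p under 0.05, and the smallest adjusted p was 0.364; the HSP90AB1 region at the 3′ end had an unadjusted p of 1.56e-04. Regions of 3 genes commonly used as references were also called higher: GAPDH (1.02 ± 0.16 SE, adjusted p = 0.00298), TUBA1B (0.81 ± 0.17, adjusted p = 0.0391) and ACTG1 (0.63 ± 0.14, adjusted p = 0.0424). None of these 3 genes was among the 47 called on their summed reads. Their called regions lay 0.39, 0.37 and 0.40 above the gene as a whole in that test, on the natural-log scale. No such difference was called.

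**Figure D5:**
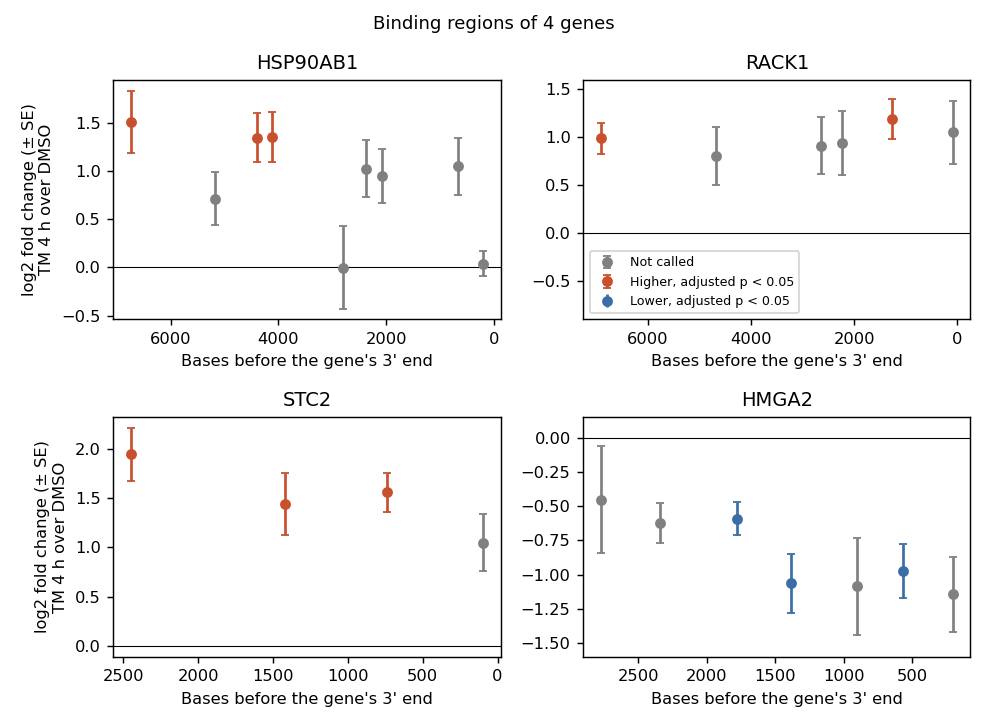
log2 fold change after TM 4 h over DMSO of each shared region of HSP90AB1, RACK1, STC2 and HMGA2 (points, with SE as bars) against its distance in bases from the 3′ end of the gene; coloured points passed the edgeR test. The 6 RACK1 regions lie between 0.80 and 1.19, and the HSP90AB1 region nearest the 3′ end is at 0.04 while 3 regions upstream are above 1.3.

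No property of the cluster sequences passed a test between the groups. T made up 32.2%, 32.2% and 31.9% of cluster bases in DMSO and 31.7%, 31.1% and 31.4% after TM 4 h, with no overlap. Clusters holding TTTT made up 38.3%, 39.8% and 39.7% in DMSO and 35.3%, 36.7% and 38.1% after TM 4 h, again with no overlap. Over the same number of most-read clusters in each sample the TTTT shares were 38.3%, 54.5% and 59.5% against 38.5%, 46.9% and 59.3%, which overlapped, as did those of clusters with at least 5 reads. TGGAC occurred 0.965, 0.958 and 0.989 times per kilobase in DMSO and 0.993, 1.02 and 1.03 times after TM 4 h. The share of clusters with TGGAC overlapped, at 5.49%, 5.85% and 6.33% against 5.59%, 6.34% and 6.61%. For the share of T, the share of clusters with TTTT and the rate of TGGAC, the two-sided exact permutation test gave p = 0.1, the smallest that 3 against 3 samples allow, and 0.525 after adjustment over 21 properties. Clusters with CATA, CATC or CATT made up 64.6% ± 0.35 (SD, n = 3) in DMSO and 64.1% ± 1.57 (SD, n = 3) after TM 4 h, and overlapped. Among protein-coding clusters, 49.2% ± 3.44 (SD, n = 3) and 47.6% ± 3.36 (SD, n = 3) lay within 2000 bases of the 3′ end. The 30-base windows of the 31 higher regions were 21.7% T, and those of the regions not called 27.6%; 3 of the 31 held TTTT and 6 held CATA, CATC or CATT. These regions were chosen by this contrast, and their composition is given as a description.

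The conversion share overlapped between the groups. Conversions made up 7.99%, 7.72% and 7.79% of conversion and non-conversion events in DMSO and 8.67%, 8.38% and 7.66% after TM 4 h. In the 36 genes that rose the share was 8.39% ± 0.27 (SD, n = 3) and 8.73% ± 0.50 (SD, n = 3), in the 11 that fell 7.92% ± 0.18 (SD, n = 3) and 8.42% ± 0.57 (SD, n = 3), and in the 2942 others 7.80% ± 0.17 (SD, n = 3) and 8.19% ± 0.56 (SD, n = 3). The two-sided exact permutation test gave p = 0.4, 0.3 and 0.4, each 0.5 after adjustment over 5 comparisons.

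TM 4 h was also set against TM 1 h, the same dose for 1 h. In the gene counts 967 of 8343 genes, 11.6%, differed. On the table of named genes, limited to genes with reads in all 9 samples, 156 of 1939, 8.05%, did. Here too a region not listed in a TM 1 h sample counted as 0. TM 1 h values are CPM on that smaller table and are not set against those above. Genes chosen by their TM 4 h values are favoured in this contrast, which uses the same TM 4 h samples. HSPA5 gave 405, 341 and 424 CPM at TM 1 h and was 2.14 ± 0.19 (SE) higher on the log2 scale at TM 4 h than at TM 1 h (edgeR adjusted p = 6.70e-06). STC2 (2.39), TRIB3 (2.35), XBP1 (1.58), SESN2 (1.55) and RACK1 (1.54) were likewise higher at TM 4 h than at TM 1 h. HMGA2 gave 5036, 4065 and 3661 CPM at TM 1 h, and TM 4 h was lower (log2 -1.22 ± 0.13 SE, adjusted p = 2.23e-05). TRIB1 was also lower, at -1.14 ± 0.20 (SE, adjusted p = 0.00231). No such call was made for DUSP5, which gave 167, 257 and 455 CPM at TM 1 h and differed by 0.01 ± 0.31 (SE, adjusted p = 0.989). EGR1 gave 881, 924 and 1681 CPM at TM 1 h and was higher at TM 4 h by 0.94 ± 0.25 (SE, adjusted p = 0.0269), and ATF3 by 1.17 ± 0.25 (SE, adjusted p = 0.00718). TM 1 h and TM 4 h share their DMSO samples, so their changes against DMSO are not compared further.

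The effect of TM 4 h was set against that of arsenite over PBS, measured in the same line with separate controls, by the test of the difference. In the gene counts 1427 of 7796 genes, 18.3%, differed. On the table of named genes, limited to genes with reads in all 12 samples, 237 of 1212, 19.6%, did. A region not listed in an arsenite or PBS sample counted as 0. PBS replicate 2 had 2990 clusters in protein-coding gene spans, against 13954 and 13338 in PBS replicates 1 and 3. HSPA5 and TRIB3 changed more after TM 4 h, by 1.89 and 1.19 on the log2 scale (edgeR adjusted p = 2.42e-04 and 0.0192), their own arsenite values being 0.43 and 0.75. SESN2 rose in both, with an arsenite value of 1.95 and a difference of -0.52 (adjusted p = 0.179). NFE2L2 changed more after arsenite, at 2.53 against the 0.68 given above (difference -1.86, adjusted p = 1.46e-05). DUSP5 and FOSL1, which fell after TM 4 h, had arsenite values of 1.55 and 1.54, and the differences were -2.86 and -2.22 (adjusted p = 1.76e-05 and 3.99e-07). TRIB1 had an arsenite value of -0.08 and a difference of -1.65 (adjusted p = 2.15e-04). The arsenite and PBS libraries belong to a set of their own. Each treatment was measured against its own controls, and other differences between the sets were not tested. Genes chosen by their change after TM 4 h are favoured in this test too, which contains that change.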

How the data were processed

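The deposited files hold raw counts of reads per gene and, per library, the authors' clusters with counts of reads and of T-to-C conversion and non-conversion events. Per the submitters' processing notes, bcl2fastq 2.20.0.422, UMI-tools 1.1.1, Trimmomatic 0.30, Bowtie 0.12.7 and featureCounts 2.0.1 were used, with GRCh38.p13 and hg38; the cluster caller is not given in the sources used here. RNase conditions are not given per library. The lowest listed cluster had 2 reads and 2 conversion locations.

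Counts were tested with edgeR 4.0.16 (R 4.3.3; TMM, filterByExpr, quasi-likelihood, two-sided, Benjamini-Hochberg threshold 0.05), and DESeq2 1.42.0 was an alternative. None of 19962 gene identifiers matched a symbol, so genes were named by placing clusters on RefSeq gene spans; reads of regions (clusters overlapping by at least 1 base) listed in all 6 samples were summed per gene and fitted over the 6 samples. This departs from the planned fit of named genes in the count table and was chosen after the files were seen. Depth was 374238 to 1568406 counted reads per sample. Promoter windows checked the build: 309 of 309 clusters that overlap one by at least 20 bases had the RefSeq sequence. Tested on simulated data, the named-gene fit recovered 66.5% of 2-fold and 98% of 4-fold changes among 2989 genes. It made 7 and 10 false calls there, and 0 with no change simulated.

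Named are up to 12 genes that rose most and 12 that fell most among called genes with a mean of at least 50 reads and no overlap, up to 4 called genes per list, and a fixed set (IGF2BP1, IGF2BP2, IGF2BP3, DDIT3, HERPUD1, HSPA5, XBP1, ATF4, TRIB3, TRIB1, BMP4); other genes named were chosen after their values were seen. Members and lists were chosen with earlier results of these data known. Some genes that the rule would name are not reported here.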

Additional observations from a re-analysis of the deposited data

Results flagged for a closer look

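The results here are those whose TM 4 h change differed by a test from that of another treatment. The 12 genes that rose most and the 11 that fell were chosen with the same TM 4 h samples. That choice favours calls among them in both tests, so these calls are given as a description. In the gene counts, edgeR called 967 genes for TM 4 h against TM 1 h and 1427 for the TM 4 h effect against that of arsenite. Among the 12 genes that rose most and the 11 that fell, TM 4 h was higher than TM 1 h on the log2 scale for STC2 (2.39), TRIB3 (2.35), HSPA5 (2.14), HSPA5P1 (1.80), RPL14P1 (1.68), XBP1 (1.58), SESN2 (1.55) and RACK1 (1.54). It was lower for HMGA2 (-1.22), TRIB1 (-1.14), BANF1P3 (-0.64), MALL (-0.61), LOC128966597 (-0.61), TGOLN2 (-0.51) and FOSL1 (-0.48). Other genes named above with such a call were NACA (1.58), RPL10 (1.51), RPL10P16 (1.32), ATF3 (1.17), EGR1 (0.94), CCNG1 (0.94), NFE2L2 (0.88), SLC7A1 (0.81), HSP90AB1 (0.81), SLC38A2 (0.79), MTHFD2 (0.66) and ATF4 (0.64), all higher at TM 4 h.

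Among the same 23 genes, the TM 4 h effect exceeded the arsenite effect for HSPA5 (1.89), HSPA5P1 (1.73), RPL14P1 (1.26), TRIB3 (1.19), COX7C (1.05), RACK1 (0.77), BANF1P3 (0.75) and FAM3C2P (0.65). BANF1P3 and FAM3C2P fell after TM 4 h and had lower values still after arsenite. It was below the arsenite effect for DUSP5 (-2.86), FOSL1 (-2.22), TRIB1 (-1.65) and HMGA2 (-1.33). Other genes named above with such a call were ATF4 (1.72), CALR (1.52), RPS16 (1.35), RPL37A (1.24), CANX (0.82), MTHFD2 (0.80), SLC7A1 (0.78), RPL10 (adjusted p = 7.95e-04) and P4HB, where the TM 4 h effect was above that of arsenite, and EGR1 (-4.73), NFE2L2 (-1.86) and SLC38A2 (-0.70), where it was below. Groups of 3 samples were too small to be examined for single outlying samples.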

How the results depend on the processing

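Of the 47 named-gene calls, 14 were kept with each library left out, and the count ranged from 16 to 86. It was 12 with the TM 1 h samples also in the fit, 10 over all clusters of a gene, 23 over regions listed in at least 5 of the 6 samples and 22 over replicates 1 and 2 alone, the library set they share. These 4 alternatives were chosen after the data were seen. In the fit with the TM 1 h samples, a region not listed in one of them counted as 0. None of the tested genes that the stated rule chose reversed its direction under any alternative run. Other genes in the text were not examined this way. In the gene counts, 426 became 152 with DESeq2 and 129 over replicates 1 and 2 alone (178 to 431 with a library left out), the 967 calls against TM 1 h became 491 with DESeq2 (523 to 859, the lowest without TM 1 h replicate 3), and the 1427 against arsenite became 854 with DESeq2. The 39 regions became 3 where regions not listed were set to 0, and 18 to 56 with a library left out. The share of clusters with CATA, CATC or CATT, -0.44 percentage points, became 0.44 over equal numbers of clusters and -1.01 to 0.46 with a library left out; the share near the 3′ end ranged from -3.32 to 0.37. Neither passed a test, and the causes were not tested.

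Same-numbered samples showed no shared deviation from their group means (correlations -0.033, -0.0416 and -0.0301). Counting noise in low counts weakens such correlations, so this cannot tell whether the numbers pair the samples. With the replicate number as a block (replicate block) the counts were 371, 902 and 1247 for the gene counts, 48 for regions and 59 for named genes. Changes of 2-fold were recovered in 40.5% of simulated regions. With no change simulated, 3 of 6288 regions were called. In the fit over all clusters of a gene, 1.5% of simulated 2-fold and 33% of 4-fold changes were recovered. Its low count of calls therefore says little about which named-gene calls hold. Depth was not varied.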
